A study of Mus musculus with 64 samples.

Results

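Transposon insertions were examined in 9 genes of the ETS family of transcription factors, namely Etv6, Ets1, Ets2, Fli1, Erg, Elf2, Spi1, Spib and Gabpa. A line of the deposited table was taken as a member line when its gene name was 1 of these 9 symbols. The members are 9 of 17104 gene symbols in the table and account for 234 of its 385883 lines.

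ETS factors bind DNA through a conserved winged helix domain that reads a short purine-rich core. Several of them are known regulators of blood cell formation, with Spi1 (the factor PU.1) and Spib acting in B cells and myeloid cells, and Ets1 in lymphocytes. Etv6 is a transcriptional repressor, and ETV6, FLI1 and ERG are known as partners in gene fusions of human leukaemias and sarcomas. Ets1 and Fli1 are neighbours on chromosome 9 of the mouse, as are Erg and Ets2 on chromosome 16.

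The study mobilised PiggyBac (PB) or Sleeping Beauty (SB) transposons in mice that developed diffuse large B cell lymphoma and mapped where the transposons had landed. PB inserts at TTAA and SB at TA. The table holds 30 tumours and 12 tails for PB and 11 tumours and 11 tails for SB, and each of the 64 samples carries an animal code of its own. Tails served as tissue without selection for lymphoma growth.

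The labels give the PB mice the genotype IMPB and the SB mice IMSB. By the study's methods, the transposase was a constitutive knock-in at Rosa26 (Rosa26PB or Rosa26SB) and the transposon came from an ITP line, in both tumour and tail groups. The SB mice were bred from parents that were Blm m3/m3, with ITP1-C or ITP2-M as the transposon line, and for the PB ITP mice the methods refer to earlier work. Strains C57BL/6, 129Sv and FVB were mixed in all of them, and ages are not given in the sources used here. The transposase is expressed throughout the body, so tails carry insertions of their own. The PB tumours came from 9 MES MASS, 6 SPLEEN, 6 MES LN and 5 LN sites and from 1 each of CERV MASS, CERV LN, LN THROAT and THOR LN, whereas the SB tumours came from 3 SPLEEN, 2 MES MASS, 2 MES LN and 1 each of SI MASS, LN SAL GL, THYMUS and PROX SI. Tumours are therefore lymphoid or gut tissue and tails are not, so that in every comparison of tumours with tails, growth of a lymphoma and the tissue of origin cannot be told apart.

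After the donor chromosome 14 and the sex chromosomes were left out, PB tumours held 756 to 10800 insertions each and PB tails 2035 to 7362, while SB tumours held 760 to 8786 and SB tails 2537 to 7148. Median reads on them were 136578 and 122874 in PB tumours and tails, and 106974 and 104091 in SB. PB tumour 3, a spleen, stood apart with 5721832 reads (numbers of samples here follow the order of accession and pair nothing). Sample names were written in 2 forms, joined and separated, which are treated here as a possible batch: 22 of 30 PB tumours and 5 of 12 PB tails had joined names, and so did all SB tumours. Intervals given below are exact 95% intervals, Clopper-Pearson for shares and Poisson for counts, and cover counting error only.

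Examples of TTAA positions that carried insertions are shown first, because each result below is a count of events at such positions. The lines give 30 bases of the plus strand of GRCm38, 5′ to 3′, with the TTAA at which the transposon was mapped in capitals. The first is the insertion with the most reads of all members. The next ones are some, not all, of the member positions carried by more than 1 sample, also where reads were few. The last lies between Erg and Ets2.
Etv6 intron 1, chr6:134065253-134065282: tcagagaactcatTTAAcgtcatgaaactt
Etv6 intron 1, chr6:134121465-134121494: ggtcattttccctTTAAgaagggtcctccg
Etv6 intron 1, chr6:134041265-134041294: gaattacagtctaTTAAaaagcaaacgcat
Ets1 intron 6, chr9:32745861-32745890: caaggtgtttcttTTAAgatacttacatag
Ets1 intron 6, chr9:32748165-32748194: ccccaaatataatTTAAtagagagatgcct
Elf2 intron 4, chr3:51274845-51274874: gcacactgtgattTTAAaaacattagttat
Ets2 intron 1, chr16:95706100-95706129: gcctggatcccttTTAAataagaattcctg
Spib intron 5, chr7:44528286-44528315: agggggaagtccgTTAAaggaacccccaga
between Erg and Ets2, chr16:95668924-95668953: agatcggtgtttaTTAAagcagaggtttag

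In PB, 22 of 194 member insertions (11.3%) lay at a position that another PB sample also carried, against 8.91% of all 204996 PB insertions. Of the 37 SB member insertions 0 did so, and the share over all SB insertions was 1.38%. Most shared member positions had few reads. The pair of Spib insertions, in PB tumours 7 and 23, lay at the same TTAA with 4 reads each and in the same direction, and the Ets1 position at 49.8 kb from the start was shared by PB tumours 8 and 17 with 13 and 6 reads. Of the bases next to the motif, only the form TTTAAA, the motif with 1 further T and A, was counted. It made up 17.6% of all TTAA sites of the 9 genes. Its share was 19.7% (13.8 to 26.8%) of the positions hit in PB tumours and 21.4% (8.30 to 41.0%) of those hit in PB tails. Both intervals hold the share of all sites, but they are wide. Other flanking bases were not examined, and the study reports a sequence bias of PB that extends past TTAA.

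Lines were assigned to the closest motif, up to 5 bp away, which kept 231 member insertions. Of these, 165 were in PB tumours and 29 in PB tails, with 19 in SB tumours and 18 in SB tails. The remaining 3 lines had no motif within reach. All 30 PB tumours carried at least 1 member insertion, as did 11 of 12 PB tails, 7 of 11 SB tumours and 10 of 11 SB tails. PB tumours were hit in a median of 3 of the 9 genes (1 to 7), PB tails in 1.5 (0 to 6), SB tumours in 2 (0 to 4) and SB tails in 1 (0 to 2). The members' share of all insertions was 0.105% in PB tumours, 0.0603% in PB tails, 0.0434% in SB tumours and 0.0354% in SB tails. The plot of insertions by sample shows that Etv6 accounted for the most hits in PB tumours, whereas Ets1, Fli1 and Elf2 were hit in 14, 14 and 17 tumours.

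**Figure D1:**
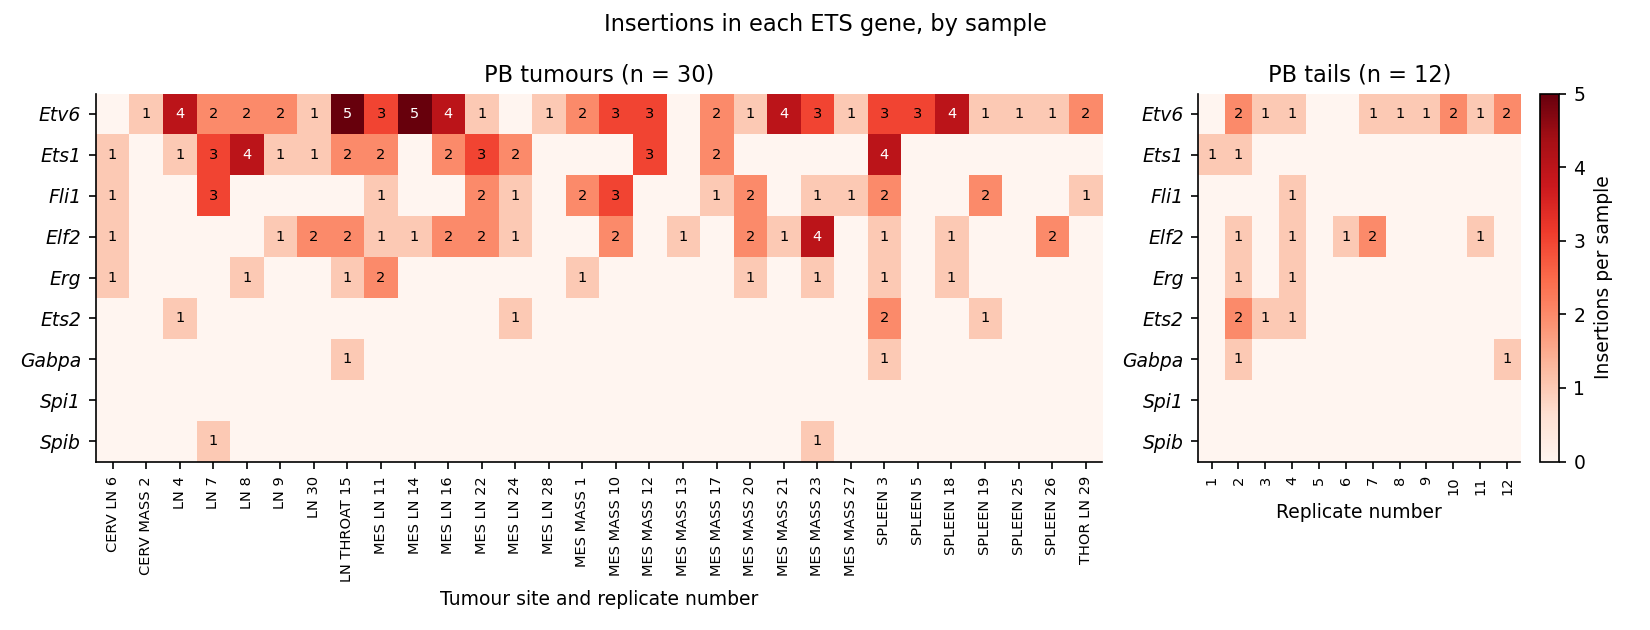
Number of insertions in each of the 9 genes (rows) in every PB tumour (left, labelled by tumour site and replicate number) and PB tail (right), with darker red for more. Etv6 was hit in 27 of 30 tumours with up to 5 insertions, and Ets2 in 3 of 12 tails and 4 of 30 tumours.

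To ask whether a gene held more insertions than its sequence provides for, the insertions in its body were compared with an expectation from its share of the motif sites of its chromosome, which is the study's TransmicronNULL model. Of the insertion preferences, it corrects only for the number of motif sites. The study's full method adds a model of insertion without selection, and with it the study detected fewer genes. That model was not run here, so a call means an excess over the share of motif sites. In PB tumours 4 of the 9 members were called, where 4.85% of all 22536 genes were. They were Etv6, Ets1, Fli1 and Elf2. In PB tails 1 of 9 was called (Ets2), where 1.18% of genes were. No member was called in SB tumours or SB tails, where 0.39% and 0.189% of genes were. At an unadjusted Wald p below 0.05 the SB tumours had 2 members, Fli1 (5 insertions, 2.04 expected) and Spi1 (2 insertions, 0.439 expected). The SB tails had 0. The exact intervals of both ratios hold 1 (0.795 to 5.71 and 0.551 to 16.4), and the share of all genes at this level is not given here. An exact Poisson test with Bonferroni correction called 0 members in both groups. Among members with an expectation of at least 1 insertion, the median ratio of observed to expected was 3.78 in PB tumours (8 members), against 1.21 over the 10260 such genes. It was 0.878 against 1.12 in PB tails, 1.44 against 1.01 in SB tumours and 1.21 against 1.02 in SB tails, with 5 members in each. Expectations were small in the 3 smaller groups (below 5 insertions for every member), so that a missing call there does not show that no excess exists.

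**Figure D2:**
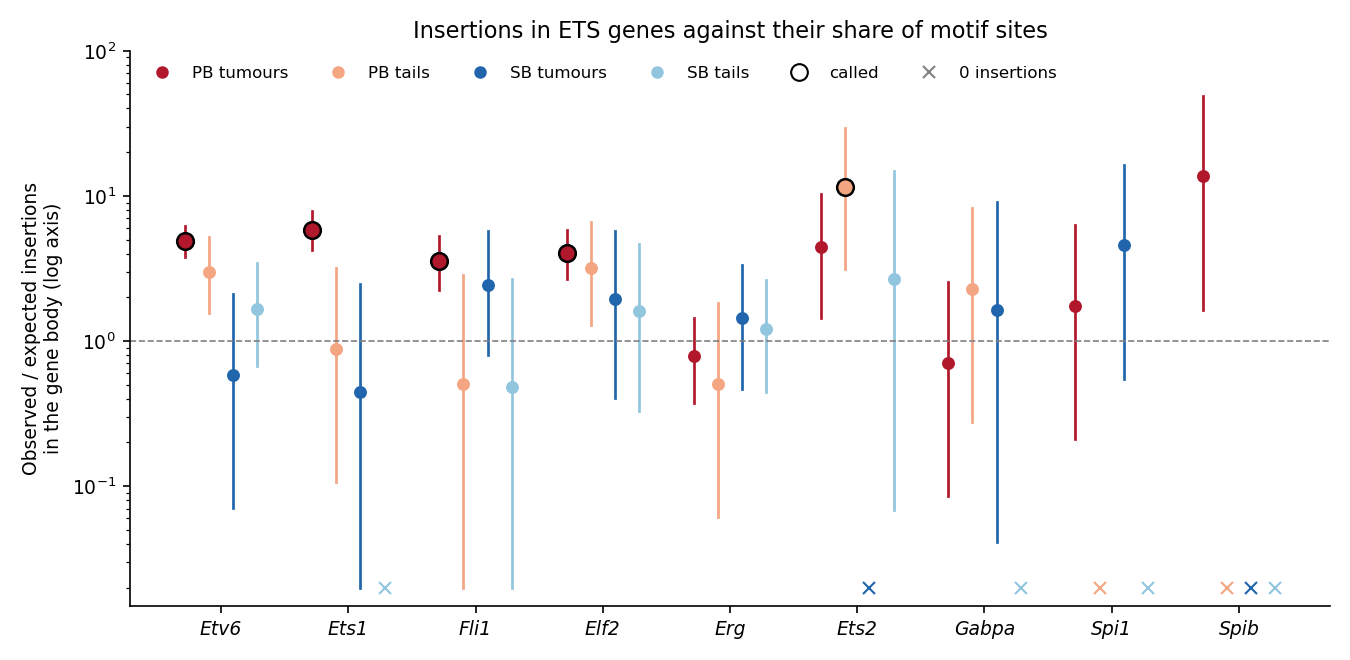
Observed over expected insertions in the gene body (log axis) for each member in the 4 groups, with exact Poisson 95% intervals, of which those reaching below the axis are cut at its foot. Circles ringed in black passed the Wald test after Bonferroni correction, and crosses mark groups with 0 insertions; the ringed members are Etv6, Ets1, Fli1 and Elf2 in PB tumours and Ets2 in PB tails.

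Etv6, a transcriptional repressor, held the most insertions of all members. Its body spans 234 kb of chromosome 6 (134035700 to 134270158, plus strand) and contains 1176 TTAA sites. The 30 PB tumours held 65 insertions there, between 0 and 5 per tumour with a median of 2, in 27 tumours (90%, 73.5 to 97.9%). The 12 PB tails held 12, between 0 and 2 with a median of 1, in 9 tails (75.0%, 42.8 to 94.5%). Thus most PB samples of both kinds were hit, and 12 of the 30 tumours but no PB tail had 3 or more insertions. The tumour count was 4.89 times the 13.3 expected (3.78 to 6.24, Wald adjusted p = 1.84e-33). The tail count was 3.0 times the 4.0 expected (1.55 to 5.24), which passed after Benjamini-Hochberg (Wald adjusted p = 0.00274) and not after Bonferroni correction. Per 1000 insertions of a sample, Etv6 received 0.461 ± 0.353 (SD, n = 30) in PB tumours and 0.253 ± 0.193 (SD, n = 12) in PB tails, and the groups overlapped over the whole range of the tails. SB tumours held 2 insertions, both in SB tumour 2, and SB tails held 7 in 5 tails, with 3.43 and 4.21 expected.

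The Etv6 insertions in PB tumours lay along most of the gene, from 5.49 to 219 kb after its start. The first intron held 36 of 65 (55.4%) with 41.6% of the sites, the second intron 22 (33.8%) with 37.3%, and no insertion was in an exon. The tails had a like split, with 7 in the first and 5 in the second intron. Insertions in the direction of the gene numbered 32 and those in the opposite direction 33. As the map of Etv6 insertions shows, neither direction was confined to a part of the gene, and the first intron alone held 19 and 17.

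**Figure D3:**
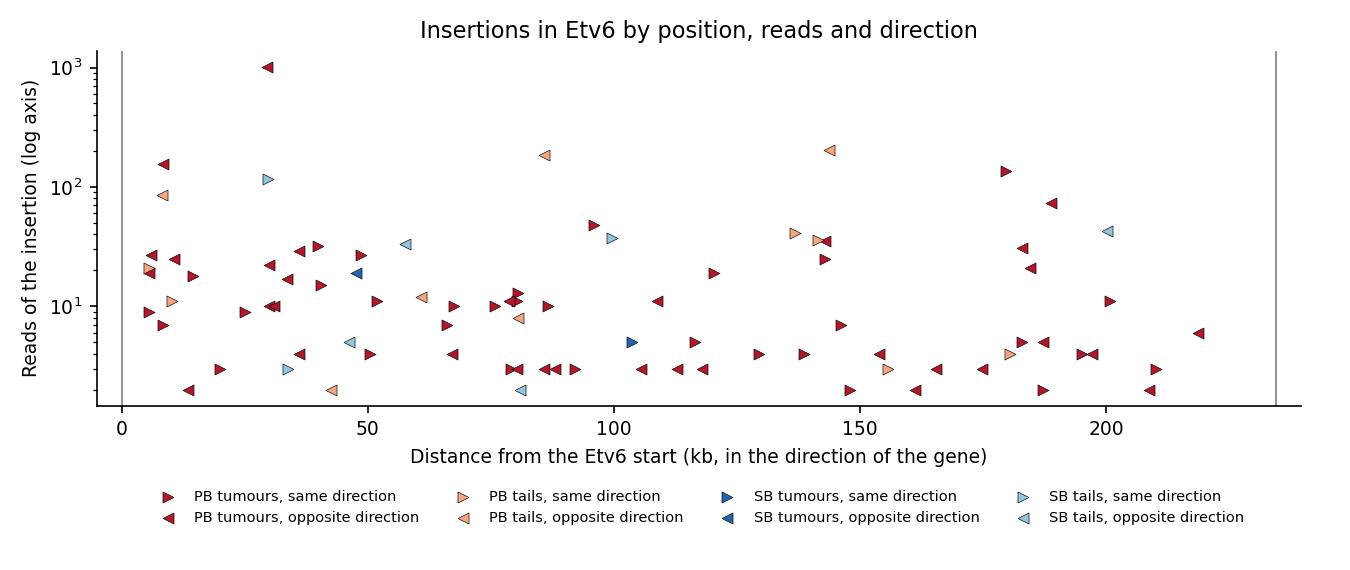
Reads of each Etv6 insertion (log axis) against its distance from the start of Etv6 in kb; grey lines mark the start and end of the gene, triangles pointing right are insertions in the direction of the gene, and colours are the 4 groups. PB tumour insertions spread from 5.49 to 219 kb in both directions, and the highest, at 1013 reads, lies at 29.6 kb.

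The insertion with the most reads of any member was also in Etv6. It lay 29.6 kb into the gene in PB tumour 5, a spleen, in the opposite direction, with 1013 reads, or 0.730% of that tumour's reads, and ranked 11th among its insertions. The next Etv6 insertions in PB tumours were at 155 reads in PB tumour 3, the library with the raised read total, and 137 reads in PB tumour 28. Tails reached similar levels, with 203 reads in PB tail 9 (rank 20) and 184 in PB tail 7 (rank 19). The latter position, 85.8 kb after the start, was also found in PB tumour 22 with 3 reads and in the same direction, and that at 5.58 kb was shared by PB tail 12 and PB tumour 16.

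Ets1, an activator that acts in T, B and NK cells, stood highest over its expectation among the called members in PB tumours. The table's name Ets1 covers the reference transcript, chr9:32696037-32757820 on the plus strand. Of the 30 PB tumours, 14 carried 31 insertions in it, between 0 and 4 per tumour with a median of 0. PB tails carried 2, in PB tails 1 and 2, SB tumours 1 and SB tails 0 of 11 (at most 28.5% of samples by the exact interval). Tails therefore never had more than 1 insertion, whereas 10 tumours had 2 or more. A longer transcript in RefSeq starts 59.8 kb further upstream, and that stretch held 13 more insertions in 11 PB tumours and 0 in PB tails; the table lists them as intergenic. With them, the gene body held 44 insertions in 17 PB tumours, 5.83 times the 7.54 expected (4.24 to 7.83, Wald adjusted p = 1.44e-27). Counted as presence per sample, with 17 tumours hit, the ratio was 2.61 and the call was lost (Wald adjusted p = 0.843). By part, the reference transcript was at 8.29 times its expectation (5.63 to 11.8) and the upstream stretch at 3.42 times (1.82 to 5.85). The PB tails stood at 2 observed against 2.28 expected over the whole body.

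Within the reference transcript, 13 of the 31 insertions lay in the first intron, 10 in intron 6 and 3 in intron 3, and the others in introns 5 and 7 and the 3′ end. Over the body, intron 6 held 22.7% of insertions with 9.85% of the sites. In the first intron 10 of 13 ran against the gene, and elsewhere 9 of 18 did. Over all genes in PB tumours 48.4% of insertions ran with the gene, and for Ets1 it was 38.7% (21.9 to 57.8%), an interval that contains the share of all genes. The highest count, 594 reads, was in PB tumour 3, where it ranked 275th among 10800 insertions, and no other Ets1 insertion exceeded 89 reads.

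Fli1, a factor of megakaryocytes, endothelium and B cells, lies next to Ets1 in the opposite orientation (chr9:32422204-32541452, minus strand). In PB tumours 14 of 30 carried 23 insertions, between 0 and 3 per tumour with a median of 0, and in PB tails 1 of 12 carried 1. In SB tumours 4 of 11 carried 5 and in SB tails 1 of 11 carried 1. In both systems the tumours thus had the larger share of samples hit. The PB tumour count was 3.54 times the 6.50 expected (2.24 to 5.31, Wald adjusted p = 1.56e-05). The Fli1 call was lost with presence per sample (a ratio of 2.45) and at 10 reads or more (3.36). The PB tail count was 0.509 times its expectation and the SB tumour count 2.45 times (0.795 to 5.71), which was not called. The first intron held 20 of the 23 PB tumour insertions (87.0%) with 52.2% of the sites, at 4.10 to 59.1 kb from the start, and 13 of the 20 ran with the gene. Reads were low, with a median of 3 and a maximum of 46 in PB tumours.

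The space between Fli1 and Ets1 was hit as well. It held 13 insertions in 9 PB tumours, 2.41 times the 5.40 expected (1.28 to 4.11), and 1 in PB tails. Beyond the far end of Ets1, 100 kb held 7 against 6.96 expected, which was no more than expected. Beyond the far end of Fli1, 100 kb held 11 against 5.63 (a ratio of 1.95, 0.975 to 3.49), some of them named for another gene, Kcnj1. From the end of Fli1 to the end of Ets1, 336 kb in all, 23 of 30 PB tumours carried 80 insertions, and 4 of 12 PB tails carried 4, or 0.510 and 0.0831 per 1000 insertions of the group. SB tumours carried 8 in 6 of 11 and SB tails 2 in 2 of 11. By name, 7 PB tumours were hit in both genes, 7 in Fli1 alone, 7 in Ets1 alone and 9 in neither. Whether joint hits were more or fewer than for independent genes was not tested.

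The other pair of neighbours, Erg and Ets2, differed from this. Erg, a factor of blood stem cells and endothelium, has the second largest body of the members (227 kb, 1018 TTAA sites) and held 10 insertions in 9 PB tumours where 12.8 were expected (0.784, 0.376 to 1.44). It held 2 in PB tails, 5 in 4 SB tumours and 6 in 6 SB tails, with 3.95, 3.47 and 4.97 expected. No group was called for Erg. Ets2, a factor that responds to Ras and MAP kinase signals, is short (18.6 kb) and held 5 insertions in 4 PB tumours and 4 in 3 PB tails. The tail count was 11.5 times the 0.349 expected (3.12 to 29.4, Wald adjusted p = 0.0120), and the tumour count 4.44 times the 1.13 expected (1.44 to 10.4, Wald adjusted p = 1). The tail call rests on 4 insertions and was lost with an exact Poisson test, with presence per sample and with at least 10 reads. At least 10 reads left 4 tumour insertions, which were called (Wald adjusted p = 0.0336). PB tumour 3 held 2 of the 5 tumour insertions, and without it the ratio was 2.84. All 4 tail insertions were in tails with joined names (3 of 5), as were the Erg insertions of PB tails (2 of 5) and SB tails (6 of 7).

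The 116 kb between Erg and Ets2 held 13 insertions in 7 of 12 PB tails, 7.29 times the 1.78 expected (3.88 to 12.5), and 10 in 9 of 30 PB tumours, 1.74 times the 5.76 expected (0.832 to 3.19). Per sample, PB tails held between 0 and 3 with a median of 1, and PB tumours between 0 and 2 with a median of 0. Of the 13, 4 lay at the same TTAA, 33.5 kb before Ets2 (the last sequence above), in PB tails 2, 3, 8 and 12, all on the minus strand and with 14 to 56 reads. No PB tumour carried it. Of 47200 positions hit in PB tails, 11 were carried by 4 or more tails. The excess was present in tails with joined names (8 insertions in 4 of 5) and with separated names (5 in 3 of 7). SB carried 0 insertions between the genes in tumours and tails, where 1.65 and 2.37 were expected.

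**Figure D4:**
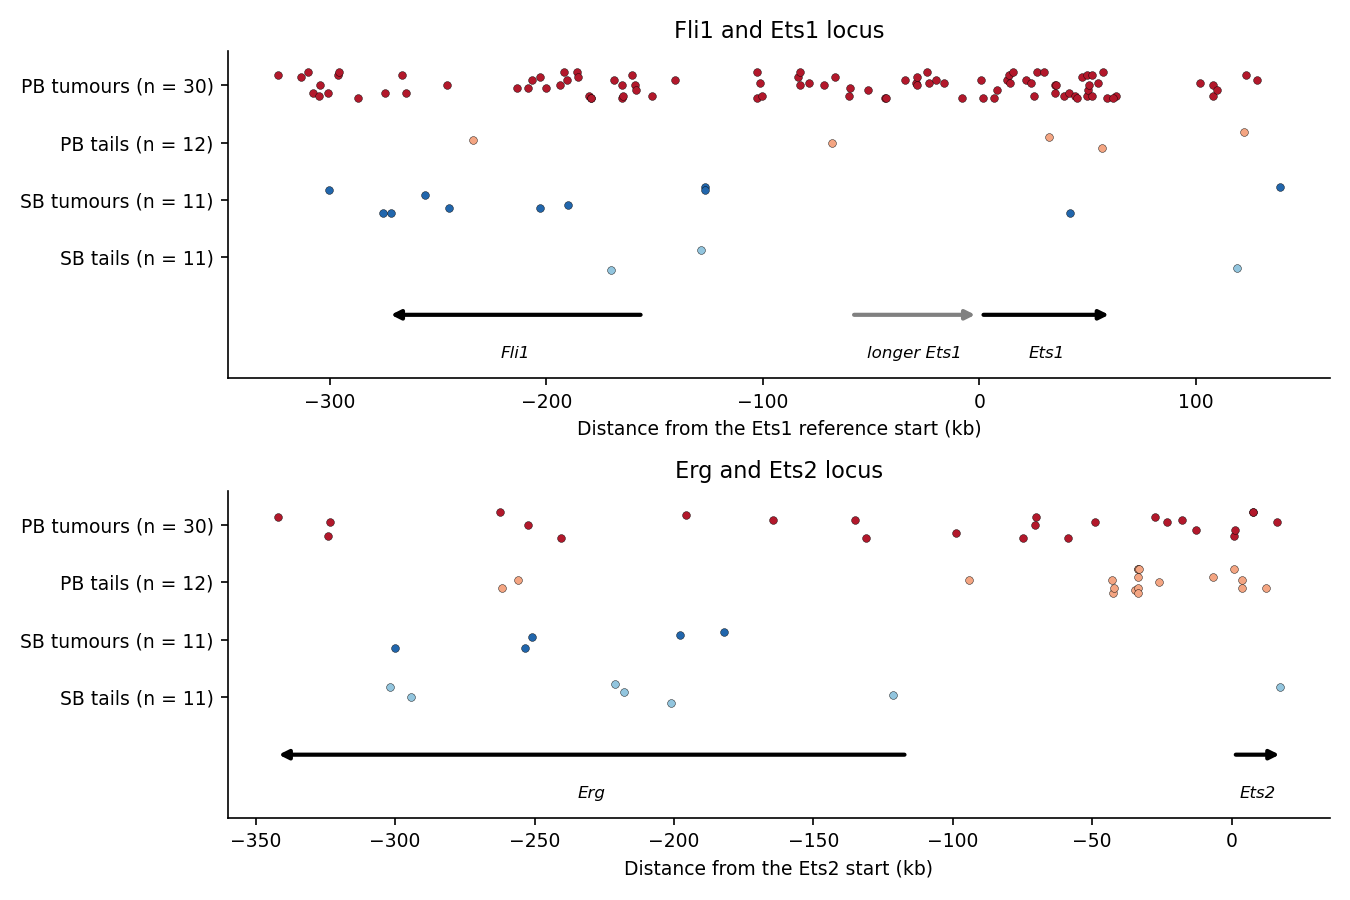
Insertions along the Fli1 and Ets1 locus (top) and the Erg and Ets2 locus (bottom), as distance in kb from the start of the Ets1 reference transcript and of Ets2; each dot is an insertion, rows are the 4 groups (dots are spread vertically within a row for legibility), and arrows are the genes in their direction, in grey the stretch of the longer Ets1 transcript. PB tumours fill the top locus with 80 insertions between the ends of Fli1 and Ets1 against 4 in PB tails, and PB tails gather before Ets2, with 13 insertions between Erg and Ets2.

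Elf2, an ELF class factor expressed in lymphocytes, was hit in 17 of 30 PB tumours by 27 insertions, between 0 and 4 per tumour with a median of 1. PB tails had 6 in 5 of 12, between 0 and 2 with a median of 0, SB tumours 3 in 3 and SB tails 3 in 1. The body (chr3:51252720-51340644, minus strand) held 28 in PB tumours, 4.03 times the 6.94 expected (2.68 to 5.83, Wald adjusted p = 1.79e-09). At 10 reads or more, 10 of them were left and Elf2 was not called (a ratio of 3.87, Wald adjusted p = 0.209). In PB tails it held 7, 3.19 times the 2.20 expected (1.28 to 6.57), which passed only under Benjamini-Hochberg correction (Wald adjusted p = 0.0231). As for Etv6, the ratio was thus above 1 in the tails too. Insertions lay in introns 1 and 3 to 7 and in the exons of the last part of the gene, with 10 of 28 in intron 4, which holds 49.0% of the sites. PB tumours 15 and 26 shared a position there, in opposite directions, with 6 and 7 reads.

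Spi1, Spib and Gabpa had few insertions. Spi1, which specifies myeloid and B cells, had 2 in SB tumours, both spleens (SB tumours 3 and 5, with 19 and 21 reads), and 0 in the other groups. For PB tumours, 2 further lines carry its older symbol Sfpi1, in PB tumours 18 and 4, and lie within the Spi1 body, so that PB and SB each had 2 tumours hit and no tail. Spib had the 2 insertions of PB tumours at its shared position and a body of only 14 TTAA sites (0.147 expected). Gabpa, the DNA binding subunit of the GABP complex, had 2 in PB tumours, 2 in PB tails and 1 in SB tumours. None of these ratios was called, and calling required at least 3 samples hit.

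To compare tumours with tails directly, the insertions per gene were tested across samples with edgeR. In PB, 5 members had the minimum of 10 insertions and 0 of them were called, where 4.49% of 3297 genes were (148 genes, of which 72, or 2.18%, were higher in tumours and 76 lower). With TMM scaling the split over all genes was 126 higher and 45 lower, and with DESeq2 66 and 20, and neither these nor Fisher's exact test on presence called a member (DESeq2 returned no adjusted p for Fli1 and Erg). The median log2 fold change over all tested genes was 0.20, with TMM 0.40, and over the 5 members 0.71. At an unadjusted p below 0.05, edgeR returned Ets1 and Fli1 among 650 genes. Ets1 had a log2 fold change of 1.72 (SE 0.66, edgeR adjusted p = 0.108), and Fli1 of 1.90 (SE 0.72, edgeR adjusted p = 0.0997). Etv6 stood at 0.71 (SE 0.46, edgeR adjusted p = 0.423), Elf2 at 0.39 (SE 0.56) and Erg at 0.41 (SE 0.63). All 5 values were positive here and under TMM and DESeq2, while counting reads in place of insertions turned Elf2 to -1.41 and Erg to -0.91, and Erg was also negative, at -0.27, among samples with joined names. Elf2 and Erg were less than 2 SEs from 0. Etv6 was too, but with DESeq2 it stood at 1.07 (SE 0.50, adjusted p = 0.139) and at 10 reads or more at 1.06 (SE 0.51, edgeR adjusted p = 0.207). The rates per sample overlapped between tumours and tails for all 5.

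For Ets1 the call depended on where the gene starts. With RefSeq gene bodies, which add the upstream stretch, its log2 fold change was 2.16 (SE 0.66, edgeR adjusted p = 0.0316), and Ets1 was then the only member among 142 called genes (4.21% of 3371). The form of the sample name moved the values too. Among samples with joined names, Ets1 was at 1.06 and Fli1 at 1.35, with name form as a block they were at 1.34 and 1.75, and neither was called. Among the 7 PB tails with separated names there were 0 insertions in Ets1 and 0 in Fli1, and among the 8 such tumours 3 and 4. Etv6 stood at 1.22 among joined and 0.01 among separated names. The part that name form plays in these values was not tested beyond these fits.

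**Figure D5:**
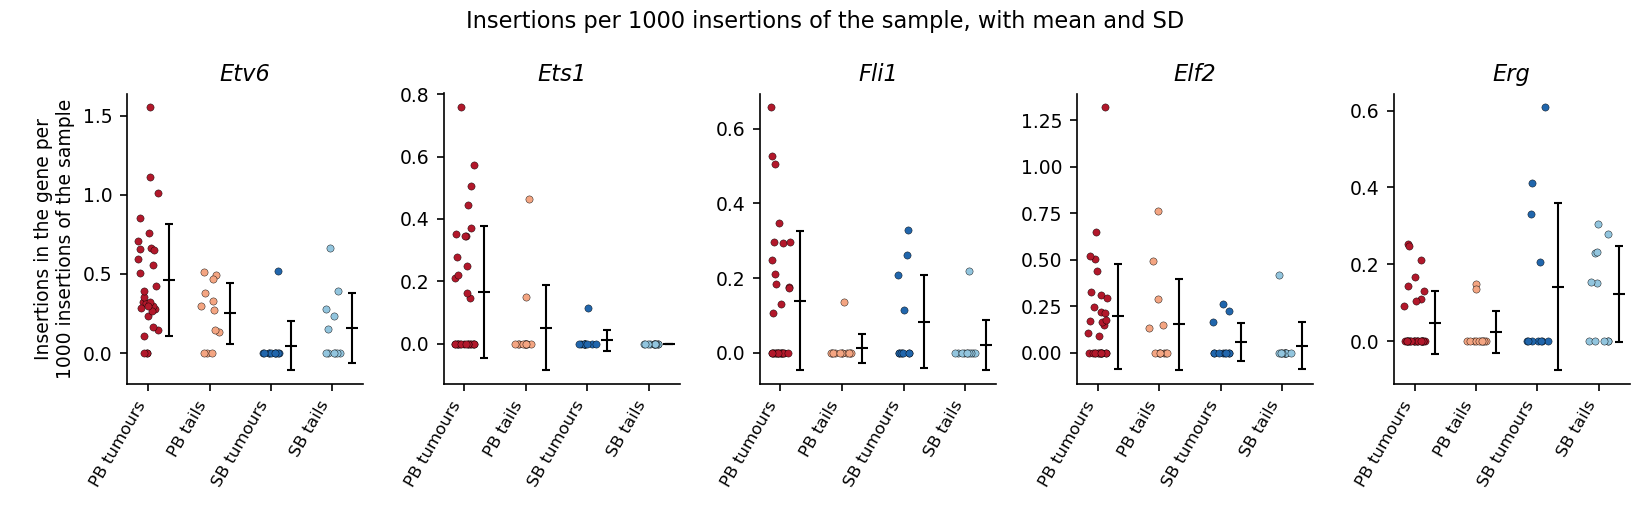
Insertions in the gene per 1000 insertions of the sample for the 5 members with the most insertions, each dot a sample, with the mean and SD of the group beside it; vertical axes differ between genes. For Ets1 and Fli1, 16 of the 30 PB tumours sit at 0, as do 10 and 11 of the 12 PB tails, while for Etv6 the PB tails, with a mean of 0.253, fall within the range of the PB tumours, with a mean of 0.461.

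In SB, Erg was the only member that reached the minimum of 10 insertions. It had 11, with a log2 fold change of -0.02 (SE 0.64, edgeR adjusted p = 0.999). It was not called, where 0.803% of 1121 genes were (0.624% higher in tumours). Whether the difference between tumours and tails itself differed between PB and SB was tested as an interaction over 4280 genes. No gene was called (0% of genes), while edgeR gave 395 at an unadjusted p below 0.05, and at 10 reads or more 1 gene was called, which is no member. Of the members, 6 were tested, and Etv6 had the smallest p, with a difference in log2 fold change of 1.90 (edgeR adjusted p = 0.538). The PB and SB values of the members are therefore given side by side and are not shown to differ.

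The median member insertion had 7 reads in PB tumours, 19 in PB tails, 10 in SB tumours and 9.5 in SB tails, against 6, 21, 13 and 19 over all insertions. No member insertion was among the 10 with the most reads of its sample in any group. Among the 100 with the most reads were 1 of 165 in PB tumours (0.606%, all insertions 1.93%), 3 of 29 in PB tails (10.3%, all 2.59%), 1 of 19 in SB tumours (5.26%, all 2.59%) and 0 of 18 in SB tails (all 2.30%). These counts are small and were not tested. The reads of an insertion reflect the share of cells that carry it and its amplification, and these cannot be told apart here. At 10 reads or more, 68 of 165 PB tumour insertions remained (41.2%, all insertions 36.2%), and 27 of 30 tumours still had a member hit.

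Direction and place in the gene were also compared with the background. In PB tumours, 82 of 165 member insertions ran with the gene (49.7%, 41.8 to 57.6%), against 48.4% over all named genes. In PB tails it was 15 of 29, in SB tumours 10 of 19 and in SB tails 8 of 18. By place, the first introns of the 9 genes hold 24.5% of their TTAA sites and received 43.1% of PB tumour and 46.7% of PB tail insertions. The later introns hold 57.9% and received 42.0% and 50.0%. Part of this lies in which genes were hit, since first introns hold 41.6% of the sites of Etv6 and 2.75% of those of Erg. With each gene's site share weighted by its insertions, first introns would receive 30.8% in PB tumours, where the observed share was 43.1% (35.8 to 50.6%), and 27.2% in PB tails, where it was 46.7% (28.3 to 65.7%). In SB the first introns hold 25.3% of TA sites and received 4 of 19 tumour and 7 of 18 tail insertions. The share of insertions in first introns was thus above the weighted share in PB tails as well as in PB tumours. Coding exons received 2 PB tumour insertions, 1 in Erg and 1 in Elf2.

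By tumour site, Ets1 was hit in 5 of 5 LN and 4 of 6 MES LN tumours, in 2 of 9 MES MASS and in 1 of 6 SPLEEN. Fli1 was hit in 6 of 9 MES MASS, 3 of 6 MES LN, 2 of 6 SPLEEN and 1 of 5 LN, and Elf2 in 5, 5, 3 and 2 of them. Etv6 was hit in 5 of 5 LN, 6 of 6 SPLEEN, 8 of 9 MES MASS and 5 of 6 MES LN. Each site had few tumours, and differences between sites were not tested. Within a tumour, Etv6 and Elf2 were hit together in 14 of 30, Etv6 with Ets1 and Etv6 with Fli1 in 12 each, and Elf2 with Ets1 in 9. Over the 30 tumours, the Spearman correlation of the number of insertions per tumour with the Ets1 count was 0.59 and with the Etv6 count 0.27. The part of the number of insertions per tumour in the joint hits was not tested. Among genes on other chromosomes, the rates most like that of Ets1 over the 30 PB tumours were those of Ascc3 (rho 0.56), Ikzf1 (0.51), the Ikaros factor of lymphocytes, and Ralgapa1 (0.50), of 496 genes compared. For Etv6 they were Cacna2d1 (0.56), Unc5c (0.53) and Angpt1 (0.46) of 489. The median rho over the genes compared was 0.058 for Ets1 and 0.0047 for Etv6. The named genes are the 3 highest of many values over 30 tumours, so they are high by the way they were picked. The correlations were not tested.

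Of the 17 other ETS genes, 14 were tested for selection (2 lie on the X chromosome). In PB tumours 1 of 14 was called, where 4.85% of all genes were. It was Elk3, a ternary complex factor, with 25 insertions in 16 tumours where 3.26 were expected (Wald adjusted p = 2.72e-20) and 0 in PB tails. By gene name, edgeR tested 5 members and 2 of the 17 other ETS genes in PB. Of these, Elk3 was the only one called, with a log2 fold change of 2.85 (SE 0.78, edgeR adjusted p = 0.0123). Among joined names (edgeR adjusted p = 0.245) and with Fisher's exact test on presence (adjusted p = 0.132) Elk3 was not called, and DESeq2 returned no adjusted p. In PB tails 1 of 14 was called, Etv3 with 4 insertions in 3 tails, where 1.18% of all genes were. In SB tumours and SB tails 0 of 14 were called. Of 10 known partners of ETS factors, 4 were called in PB tumours, where 4.85% of all genes were. They were Runx1 (62 insertions in 23 tumours), Cbfb (18 in 15), Pax5 (24 in 15) and Irf8 (5 in 4). Runx1 and Cbfb were called in SB tumours too, with 15 insertions in 7 and 31 in 5 of 11 tumours. Over all genes the share called there was 0.39%. By edgeR 2 partners were tested in SB, and Cbfb was called with a log2 fold change of 3.43 (SE 0.65, edgeR adjusted p = 4.02e-05). With DESeq2 Cbfb stood at 1.3 in SB (SE 1.39, adjusted p = 0.992), and with Fisher's exact test on presence its adjusted p was 1, so that neither called it. In PB tails and SB tails 0 of 10 partners were called, where 1.18% and 0.189% of all genes were.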

How the data were processed

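Insertions were measured in DNA of 64 mouse samples by splinkerette PCR and paired-end sequencing of 75 bp reads. The authors mapped the reads to mm10 (per the labels) and deposited 1 table of insertions with position, strand, gene name and read counts. The aligner is not given in the sources used here. The lowest read count in the table was 2, and 1 normalised coverage column was not used. Lines of a sample at the same motif (TTAA or TA, GRCm38) were taken as 1 insertion, and chromosome 14, which holds the transposon donor, X and Y were left out.

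Selection was tested as in the TransmicronNULL model, which leaves out the study's model of insertion preferences. Expected insertions were those of the chromosome times the share of its motif sites in the RefSeq gene body. A 1-sided Wald test with Bonferroni correction was used, and a call needed at least 3 samples and 5% of samples hit. Tumours and tails were compared with edgeR 4.0.16 (quasi-likelihood, R 4.3.3) on insertions per named gene with at least 10 insertions, the sample's insertions as library size and Benjamini-Hochberg adjustment at 0.05. The SE printed with an edgeR log2 fold change was derived from the test. It is the absolute fold change divided by the square root of the quasi-likelihood F statistic. DESeq2 1.42.0, TMM scaling, Fisher's exact test, an exact Poisson test, presence per sample, at least 10 reads, RefSeq gene bodies, reads per gene and the form of the sample name were tried as alternatives. Leaving out PB tumour 3 and a block on the number in the animal codes were chosen after seeing the data. Scripts were tested on simulated data.

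The members and the lists of other ETS genes and partners were chosen with earlier results of these data known. Named genes are the members, listed genes that passed a test, and for Etv6 and Ets1 the 3 genes on other chromosomes with the most similar insertion rates, among genes with at least 30 insertions in at least 10 PB tumours. The edgeR p-values measure the spread between animals within a group, whereas the Wald and Poisson p-values of the selection test come from pooled counts and cover counting error only.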

Additional observations from a re-analysis of the deposited data

Results flagged for a closer look

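Around the Fli1 and Ets1 pair, 3 stretches that the table does not give to a member held 10 or more insertions in PB tumours and more per 1000 insertions than in PB tails. These stretches were listed by that rule, so that the direction was set in advance. They lie outside the lines on which the members were counted, and the difference between tumours and tails was not tested for them. The space between Fli1 and Ets1 held 13 insertions in PB tumours (0.0829 per 1000 insertions) against 1 in PB tails (0.0208). The stretch of the longer Ets1 transcript, before the reference start, also held 13 (0.0829), in 11 tumours with 9 of them among the 22 with joined names, against 0 in PB tails. The 100 kb past the end of Fli1 held 11 (0.0701) in 8 tumours, all with joined names, against 0 in PB tails. Some of the 11 carry the name of another gene, Kcnj1, and PB tumour 5 held 3 of them. The interval of the ratio to expectation in this stretch, 0.975 to 3.49, holds 1. Reads were low in each, with medians of 11, 5 and 7. In PB tails only 1.63, 1.15 and 1.70 insertions were expected in the stretches, in the same order. The exact intervals of the tail ratios reached up to 3.41, 3.21 and 2.17, so that the low tail counts are weak evidence.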

How the results depend on the processing

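Of the main counts compared between settings, 64 held and 30 did not. Most were counts of genes or members called, which held if they stayed within 1.5 times their value. The rest were counts of samples with a member insertion, which held if they stayed within the exact Clopper-Pearson interval. Genes called by edgeR between PB tumours and tails numbered 148, 71 with no minimum, 361 with reads per gene, 33 and 28 with joined or separated names only, 86 with DESeq2, 7 with Fisher's exact test and 147 without PB tumour 3. Members called rose from 0 to 1 (Ets1) with RefSeq gene bodies. In SB, 9 became 14 with reads per gene, 2 with DESeq2 and 1 with Fisher's exact test, and the interaction had 1 call at 10 reads or more and 0 without PB tumour 3. Erg in PB turned to -0.27 with joined names and -0.91 with reads per gene, Elf2 to -1.41 with reads per gene, and Erg in SB to 0.090 with reads per gene.

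For selection, the calls in PB tumours (1094) became 632 with an exact Poisson test, 485 with presence per sample, 468 at 10 reads or more, 2755 with Benjamini-Hochberg correction and 1043 without PB tumour 3. In PB tails (267) they became 81, 90 and, with Benjamini-Hochberg, 822, in SB tumours (93) 32, 17 and 303, and in SB tails (45) 13, 9 and 164, in the same order. Of the 4 members called in PB tumours, 2 were called with presence per sample (Etv6 and Elf2). At 10 reads or more the calls of Fli1 and Elf2 were lost and that of Ets2 was gained. In PB tails the members called went from 1 to 0 with the exact Poisson test, with presence and at 10 reads or more, and to 3 with Benjamini-Hochberg. Ratios that crossed 1 at 10 reads or more were Spib in PB tumours (0), Fli1 (0.782) and Gabpa (0) in SB tumours, and Ets2 (0) and Erg (0.576) in SB tails, and with presence Elf2 in SB tails (0.584). The causes were not tested.

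No paired analysis was made, because each sample carries an animal code of its own and no code joins a tumour with a tail. The number in the animal codes, whose meaning the labels do not give, is shared by tumours and tails for 6 of 11 PB and 4 of 8 SB numbers. With it as a block, 78 genes were called in PB and 9 in SB, with 0 members in either. Insertions with few reads limit every count, since most member insertions in PB tumours had fewer than 10 reads, and with 11 or 12 samples in the other groups a single insertion moves a ratio of small genes.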
